A study of Homo sapiens with 16 samples.

Results

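The genes of prostaglandin and leukotriene synthesis were followed in OCI-AML3, an established acute myeloid leukaemia cell line, as 10 of the 62700 genes in the deposited table of normalized counts. They were taken by symbol, each with a single Ensembl identifier: PLA2G4A, PTGS1, PTGS2, PTGES, PTGES2, HPGD, ALOX5, ALOX5AP, LTA4H and LTC4S. Cells were left untreated (Untreated, 4 libraries) or were treated for 3 h with 0.1 µM all-trans retinoic acid (ATRA, 3 libraries) or 0.1 µM Am80 (AM80, 3 libraries), a synthetic retinoid selective for RARA, whereas ATRA activates all retinoic acid receptors. The remaining 3 libraries each of ATRA-LSDi-MB3 and AM80-LSDi-MB3 came from cells given the same retinoid together with 0.1 µM GSK-LSD1, an inhibitor of the lysine demethylase LSD1, and 100 µM MB3, an inhibitor of the histone acetyltransferase GCN5. The doses are those stated for cell lines in the methods of the study and the time is the one stated for its RNA-seq. All groups are cultures of 1 cell line without a genetic change between them, cells given an inhibitor without a retinoid or a single inhibitor were not analysed here, and the sources do not say whether untreated cells received vehicle. The libraries of a group are labelled as repeats and nothing says that they came from separate cultures, so p-values measure only the spread between these libraries, which may be technical.

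Prostaglandins and leukotrienes are lipid mediators made from arachidonic acid, which cytosolic phospholipase A2 (PLA2G4A) cuts from membrane phospholipids. In the prostaglandin branch a cyclooxygenase (PTGS1 or PTGS2) makes prostaglandin H2, prostaglandin E synthases (PTGES, PTGES2) turn it into prostaglandin E2, and HPGD inactivates the product. In the leukotriene branch 5-lipoxygenase (ALOX5), with its membrane partner ALOX5AP, makes leukotriene A4, which LTA4H turns into leukotriene B4 and LTC4S into leukotriene C4, and neutrophils, monocytes and mast cells are known for this branch.

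Between 11963898 and 33789718 reads per library were counted to genes, and the floor of 3 reads corresponded to 1.55 to 4.18 normalized counts. Replicate pairs differed by more than sampling noise (chi-square per degree of freedom 2.75 to 25.9 over 18 pairs), so no library was counted as a copy. In distance over the 1000 most variable genes, AM80 replicate 2 (mean distance 26.0) and Untreated replicate 4 (25.7) stood farthest from the other libraries of their groups. Untreated replicate 1 was close behind at 25.1. Genes with at least 61.3% G or C were set against genes with at most 38.5%, relative to the other libraries of the group. Their medians differed on the log2 scale by -0.64 in AM80 replicate 2 and by 0.33 in Untreated replicate 4. For AM80 replicate 3 the value was 0.46, relative to libraries that include replicate 2. Results that rest on AM80 replicate 2 or Untreated replicate 4 are given without them. All 9 myeloid markers were expressed (summed normalized counts of 25237 to 35863 per library). Of the lists of other cell types, all 3 T cell, all 3 erythroid and all 3 epithelial markers had at most 3 reads in every library. The same held for PF4, PPBP and GP9 among 5 platelet markers (sums of 59.1 to 96.6), CPA3 and HDC among 4 mast cell markers (23.7 to 58.7), MS4A1 among 3 B cell markers (19.9 to 53.7) and COL3A1 among 3 fibroblast markers (52.2 to 84.5). The summed B cell markers lay at 19.9 to 26.8 in Untreated and at 39.9 to 53.7 in the combinations, and the mast cell markers at 23.7 to 41.1 and 36.2 to 58.7, and the part of these genes in the results below was not tested.

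Of the 10 genes, 9 reached the mean of 10 normalized counts that a gene needed to be tested, and HPGD did not. Levels of different genes were compared per kilobase of merged exons. On this scale LTC4S was the highest in Untreated with a mean of 945 normalized counts per kilobase, followed by ALOX5AP at 473, LTA4H at 420.3, PTGES2 at 339 and PLA2G4A at 244. PTGS1 lay at 54.1, ALOX5 at 20.4, PTGS2 at 16.1 and PTGES at 0.476 normalized counts per kilobase. In untreated cells the leukotriene partner and terminal enzymes were thus at higher levels than 5-lipoxygenase itself, and PTGS1 was the more abundant cyclooxygenase. The order depends on the merged length, 7350 bases for LTA4H and 1192 for LTC4S, which need not be that of the transcripts present. Without division by length, LTA4H had the higher untreated mean (3089 normalized counts against 1126 for LTC4S).

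**Figure D1:**
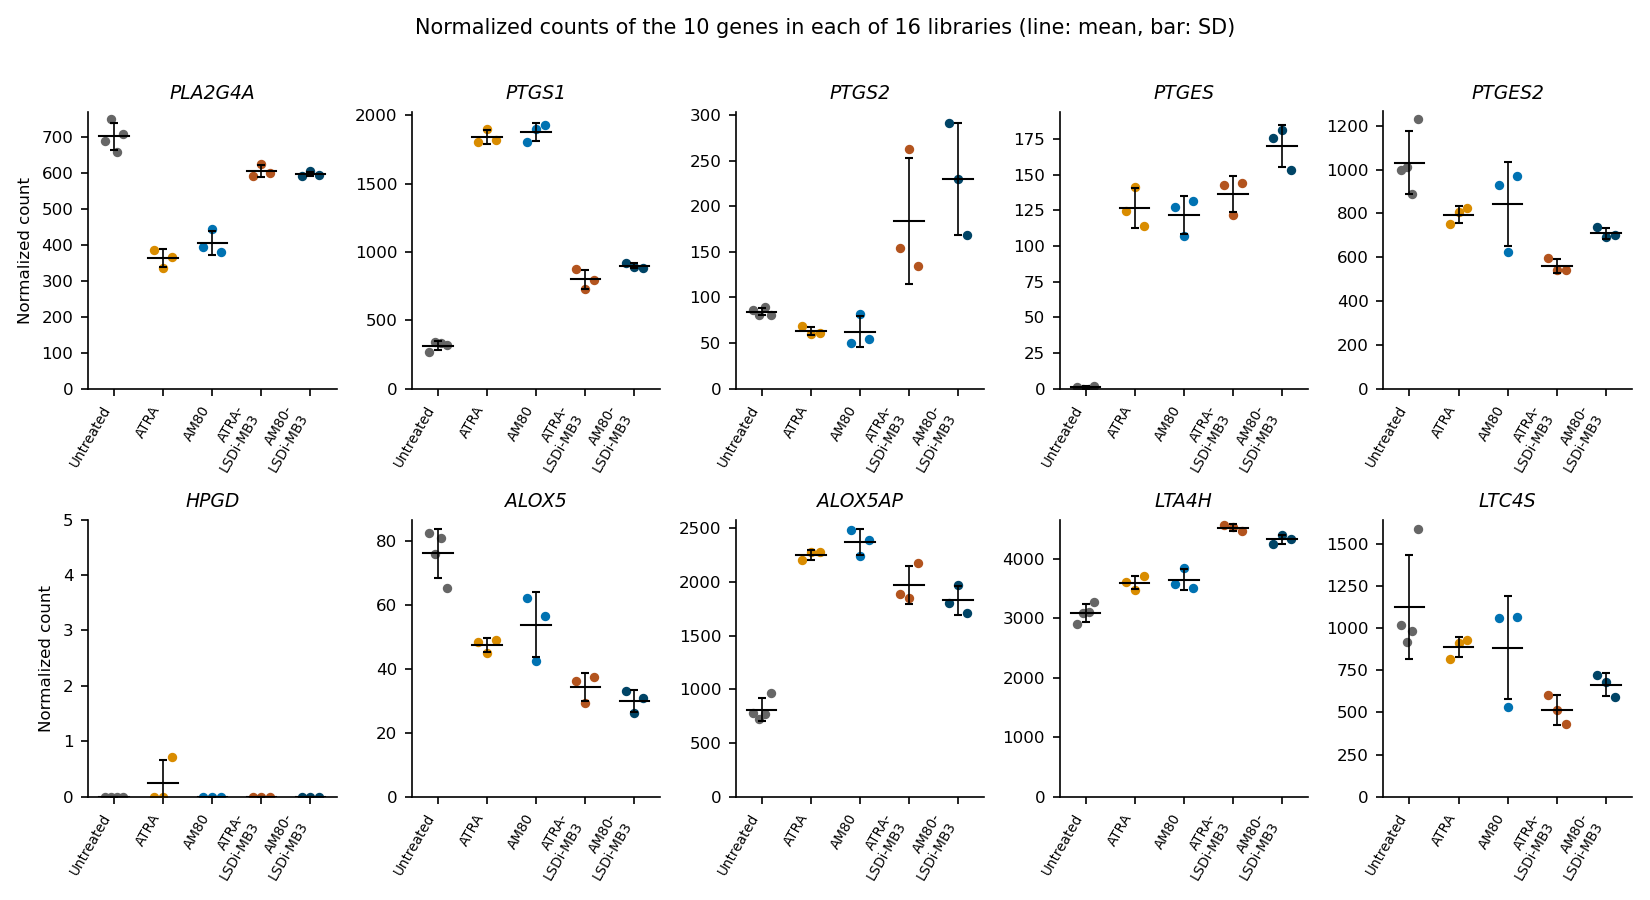
Normalized count (vertical axis, linear from 0) of each of the 10 genes in the 16 libraries, by group along the horizontal axis. Points are libraries, lines group means and bars the SD. PTGS1, PTGES and ALOX5AP sit higher in every treated library than in every untreated one, PTGS2 is above the untreated range in all 6 libraries with inhibitors, and HPGD has 1 read in a single library.

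With either retinoid, PTGS1, PTGES and ALOX5AP rose and PLA2G4A fell. ALOX5 fell with ATRA, while its difference with Am80 was under the fold limit. With ATRA, 5 of the 9 genes tested were called (adjusted p under 0.05 and over 1.5-fold), 3 higher and 2 lower, against 9.45% of the 14643 genes tested (6.52% higher and 2.94% lower). With Am80, 4 of 9 were called, 3 higher and 1 lower, against 10.2% of all genes (6.41% and 3.76%). PTGES, counted among the 3 higher with each retinoid, passed the filter only through the treated groups, so its own call is a description. The median log2 fold change of the 9 genes, PTGES included, was -0.31 with ATRA and -0.31 with Am80, against -0.02 and -0.01 over all genes. Both comparisons share the 4 untreated libraries. In bulk libraries such as these, a change of level in each cell and a change in the number of cells that express a gene cannot be told apart.

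PTGES (microsomal prostaglandin E synthase-1, ENSG00000148344.11, chr9:129738331-129753047, minus strand in GENCODE 29 on GRCh38), which makes prostaglandin E2 downstream of the cyclooxygenases, went from near absence to expression. The untreated libraries held 1, 0, 0 and 2 reads, that is 1.39, 0, 0 and 2.22 normalized counts. The ATRA libraries held 124, 141 and 114 normalized counts, and the AM80 libraries 127, 107 and 132. With the inhibitors the values were 143, 122 and 144 in ATRA-LSDi-MB3 and 175, 181 and 153 in AM80-LSDi-MB3. No treated library came near the untreated range. As the untreated cells gave 3 reads in all, the ratio to them has a wide counting interval. It was taken from reads pooled over each group and scaled by the size factors, not from the group means of normalized counts. The ratio was 147 with ATRA (95% exact interval 49.98 to 715), 140 with Am80 (47.5 to 680), 159 in ATRA-LSDi-MB3 (54.1 to 776) and 199 in AM80-LSDi-MB3 (67.5 to 968). These intervals cover counting error only. On the log2(normalized count + 1) scale the fitted log2 fold changes were 6.25 ± 0.30 (SE) with ATRA (adjusted p = 5.35e-13, limma) and 6.20 ± 0.30 with Am80 (adjusted p = 6.26e-13), and they depend on the pseudocount. PTGES had the 7th largest absolute log2 fold change on this scale among all genes tested with either retinoid. As PTGES passed the filter only through the treated groups, its rank and adjusted p-values are a description.

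PTGS1 (COX-1, ENSG00000095303.17, chr9:122370530-122395703, plus strand), the cyclooxygenase known for its constitutive expression, had the next widest range of group means (2.59 on the log2 scale). The untreated libraries held 265, 338, 331 and 319 normalized counts. They were 1808, 1900.3 and 1822 with ATRA and 1808, 1899 and 1933 with Am80. In ATRA-LSDi-MB3 they were 873, 729 and 797, and in AM80-LSDi-MB3 919, 893 and 883. The ranges of Untreated, of the combinations and of the retinoids alone did not overlap. The rise was 5.89-fold with ATRA (log2 2.56 ± 0.08, adjusted p = 6.65e-16) and 6.01-fold with Am80 (log2 2.59 ± 0.08, adjusted p = 5.34e-16). AL162424.1, annotated within an intron of PTGS1 on the same strand and sharing no exon with it, had a mean of 14.8 normalized counts.

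PTGS2 (COX-2, ENSG00000073756.13, chr1:186671791-186680427, minus strand), the cyclooxygenase known for its induction by inflammatory signals, did not follow PTGS1. Its normalized counts were 86.5, 81.3, 89.7 and 80.9 in Untreated and 68.4, 60.4 and 61.2 with ATRA. With Am80 they were 50.1, 81.8 and 55.0. The ATRA range lay below the untreated range, while the AM80 range reached into it through replicate 2. Neither difference passed the test (log2 -0.41 ± 0.21, adjusted p = 0.157 with ATRA, and -0.47 ± 0.21, adjusted p = 0.0965 with Am80). Without AM80 replicate 2 the fall with Am80 was called (log2 -0.68, adjusted p = 0.0249), as it was with the GC trend removed (-0.60, adjusted p = 0.0214). Per kilobase, the mean level of PTGS1 against PTGS2 was 54.1 against 16.1 normalized counts in Untreated, 318 against 12.02 with ATRA and 325 against 11.8 with Am80.

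PLA2G4A (ENSG00000116711.10, chr1:186828953-186988981, plus strand), the arachidonate-releasing phospholipase, fell with both retinoids. Its normalized counts were 690.3, 751, 659 and 709 in Untreated. With ATRA they were 386, 336 and 367, and with Am80 395, 445 and 381. Every library of the retinoids alone lay below every untreated library. The level with ATRA was 0.517 times the untreated one (log2 -0.95 ± 0.07, adjusted p = 2.43e-09) and with Am80 0.579 times (log2 -0.79 ± 0.07, adjusted p = 4.60e-08). PLA2G4A and PTGS2 lie near each other on chromosome 1, with 148526 bases between their annotated starts.

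PTGES2 (microsomal prostaglandin E synthase-2, ENSG00000148334.16, chr9:128120693-128128462, minus strand), the other membrane-bound prostaglandin E synthase, was not called with either retinoid. In Untreated it had 996, 1009, 887 and 1229.8 normalized counts. They were 751, 806 and 824 with ATRA and 931, 622 and 973 with Am80, where replicate 2 was the lowest. The log2 fold change was -0.37 ± 0.12 with ATRA (adjusted p = 0.0299), under the fold limit, and -0.31 ± 0.12 with Am80 (adjusted p = 0.0606). Without both libraries that stood apart these values were -0.28 and -0.02. HPGD (ENSG00000164120.14, chr4:174490177-174523154, minus strand), which degrades prostaglandins, had a single read in ATRA replicate 3 and none in the other 15 libraries. A count of 0 allows a level of up to 3 reads, which is 1.55 to 4.18 normalized counts depending on the library.

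In the leukotriene branch, ALOX5AP (FLAP, ENSG00000132965.10, chr13:30713478-30764426, plus strand), which presents arachidonate to 5-lipoxygenase, rose. Untreated libraries had 784, 720.4, 773 and 966 normalized counts. With ATRA they were 2201, 2279.9 and 2285, and with Am80 2483, 2239 and 2389. The highest untreated library was replicate 4, and it still lay far below the lowest treated one. The rise was 2.80-fold with ATRA (log2 1.48 ± 0.09, adjusted p = 1.58e-11) and 2.94-fold with Am80 (log2 1.55 ± 0.09, adjusted p = 7.16e-12). ALOX5 itself (ENSG00000012779.12, chr10:45374176-45446119, plus strand) moved the other way. It had 82.3, 75.7, 81.0 and 65.4 normalized counts in Untreated, 48.2, 44.9 and 49.0 with ATRA and 62.2, 42.5 and 56.4 with Am80. Both treated ranges lay below the untreated one. The log2 fold change was -0.67 ± 0.16 with ATRA (adjusted p = 0.00418) and -0.51 ± 0.16 with Am80 (adjusted p = 0.0239), the latter under the fold limit. Without AM80 replicate 1 the fall with Am80 was called (-0.62, adjusted p = 0.019). Over all alternatives this fall ran from -0.62 to -0.35, with adjusted p of up to 0.165 (limma, edgeR or DESeq2). AM80 replicate 2, which stood apart, held the lowest ALOX5 value with Am80. The mean ALOX5AP level per kilobase was 473 in Untreated against 20.4 for ALOX5, and 1315 against 12.7 with ATRA.

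LTA4H (ENSG00000111144.10, chr12:96000828-96043520, minus strand), a zinc hydrolase and aminopeptidase that makes leukotriene B4, had the narrowest range of group means of the 9 genes tested (0.55 on the log2 scale). Its normalized counts were 2899, 3089, 3094 and 3274 in Untreated. They were 3607, 3476 and 3701 with ATRA and 3577, 3841 and 3513 with Am80. The treated ranges lay above the untreated one, with log2 fold changes of 0.22 ± 0.06 (adjusted p = 0.00612) and 0.24 ± 0.06 (adjusted p = 0.00284), both under the fold limit. Exons of LTA4H overlap the antisense genes AC007298.2 and AC007298.1, with means of 8.71 and 1.77 normalized counts, and since the strand setting of the counting is not stated, reads of these genes and of LTA4H cannot be told apart there. LTC4S (ENSG00000213316.10, chr5:179793980-179796647, plus strand), the leukotriene C4 synthase of mast cells and eosinophils, had 1019, 915, 983 and 1587 normalized counts in Untreated. It had 819, 913 and 931 with ATRA and 1058, 530.2 and 1063 with Am80. The libraries that stood apart, Untreated replicate 4 and AM80 replicate 2, held its highest and lowest value in these groups, and 71.4% of the bases of its longest transcript are G or C. Its log2 fold changes of -0.31 ± 0.20 (adjusted p = 0.28) and -0.38 ± 0.20 (adjusted p = 0.158) did not pass the test, and without these libraries they were -0.13 and 0.13, so that no direction can be given for Am80.

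**Figure D2:**
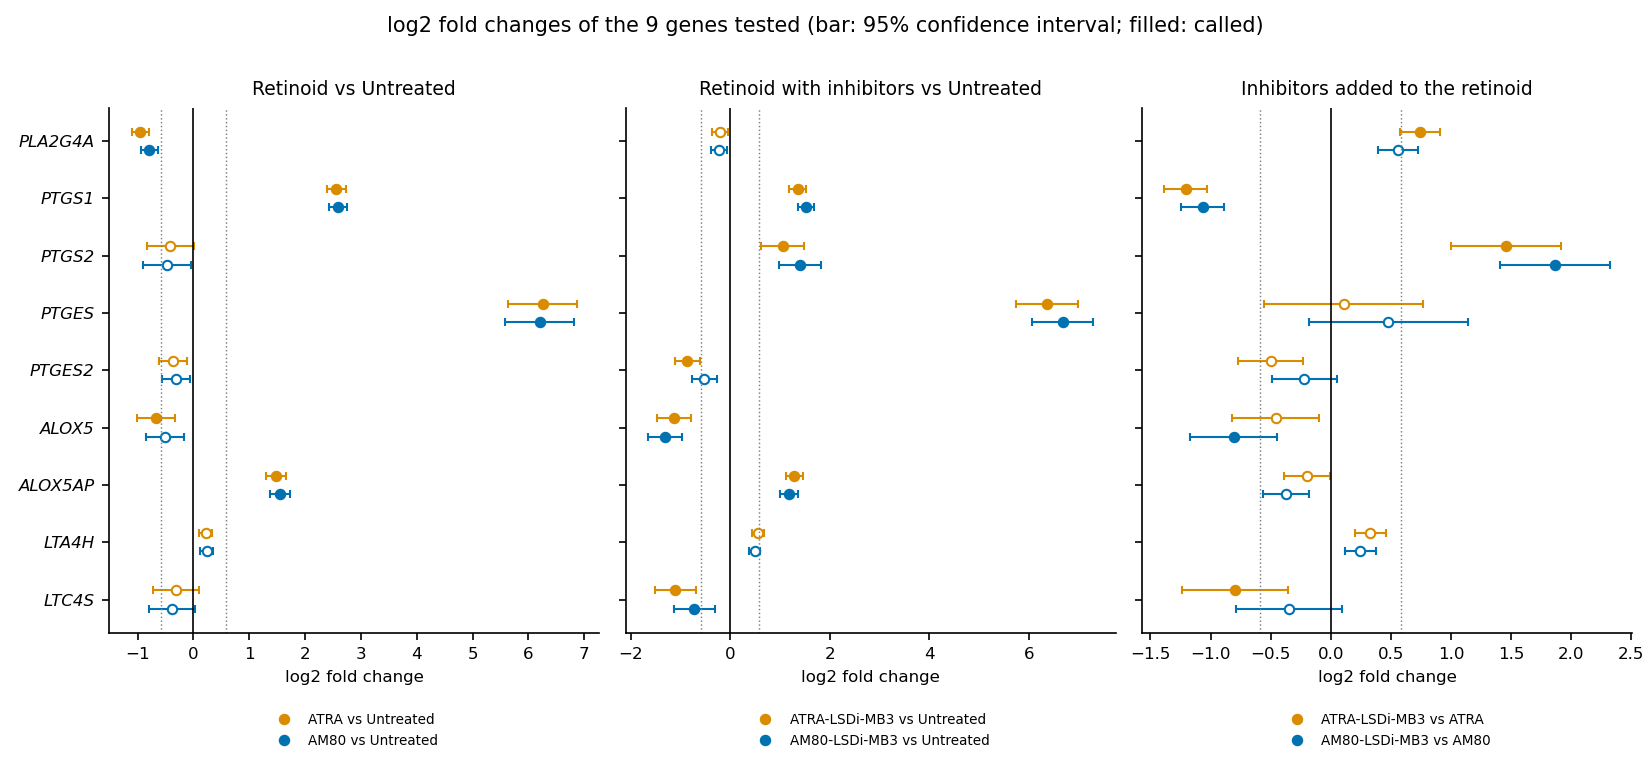
Log2 fold change (horizontal axis, a separate scale in each panel) of the 9 genes tested, for the retinoid against Untreated, the combination against Untreated and the combination against its retinoid, with ATRA in orange and Am80 in blue. Bars are 95% confidence intervals, filled points are called genes and dotted lines mark 1.5-fold. PTGES lies above 6 in all 4 comparisons with Untreated, and PTGS1 and PTGS2 lie on opposite sides of 0 in the comparison of the combination with its retinoid.

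As PTGS1, PTGES and ALOX5AP rose together, the 250 bases before their RefSeq starts (GRCh38.p14) are shown, with that of PTGS2, the cyclooxygenase that rose when the inhibitors were added. RefSeq windows were matched for 9 of the 10 genes, and the start nearest the GENCODE 29 gene start was taken. Capitals mark the hexamer AGGTCA, which retinoic acid receptors are known to bind in pairs, its variants AGTTCA as well as GGGTCA as well as GGTTCA, the GC box (letters GGGCGG) and the TATA box (letters TATAAA), each searched on both strands and not overlapping each other in these windows.
PTGS1 (chr9:122370283-122370532, plus strand): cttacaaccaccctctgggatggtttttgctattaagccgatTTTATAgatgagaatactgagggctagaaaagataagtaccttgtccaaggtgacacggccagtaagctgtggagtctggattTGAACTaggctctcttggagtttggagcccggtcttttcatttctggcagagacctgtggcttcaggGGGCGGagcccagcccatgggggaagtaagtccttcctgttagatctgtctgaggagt
PTGES (chr9:129753043-129753292, minus strand): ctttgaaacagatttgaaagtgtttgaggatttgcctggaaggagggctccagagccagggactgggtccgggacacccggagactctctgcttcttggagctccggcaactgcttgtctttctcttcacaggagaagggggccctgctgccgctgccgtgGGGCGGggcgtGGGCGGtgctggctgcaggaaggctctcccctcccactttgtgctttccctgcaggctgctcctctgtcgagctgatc
ALOX5AP (chr13:30713235-30713484, plus strand): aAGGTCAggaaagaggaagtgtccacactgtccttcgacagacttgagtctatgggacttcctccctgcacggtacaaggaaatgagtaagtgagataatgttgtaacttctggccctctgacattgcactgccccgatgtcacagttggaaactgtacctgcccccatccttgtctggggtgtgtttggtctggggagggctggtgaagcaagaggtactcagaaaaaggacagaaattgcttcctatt
PTGS2 (chr1:186680424-186680673, minus strand): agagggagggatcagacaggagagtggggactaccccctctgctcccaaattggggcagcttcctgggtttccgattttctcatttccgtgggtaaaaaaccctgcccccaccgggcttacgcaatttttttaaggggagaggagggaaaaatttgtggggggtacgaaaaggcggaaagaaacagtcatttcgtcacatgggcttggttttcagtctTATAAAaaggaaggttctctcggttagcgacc

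In the PTGS1 window the complement of AGTTCA began 125 bases before the start, and ALOX5AP held AGGTCA 249 bases before it. Of all 35116 RefSeq windows of this length, 8.80% held AGTTCA and 12.1% held AGGTCA on either strand. Any of the 4 hexamers was found in 3 of the 9 windows (PTGS1, ALOX5AP and LTC4S) and in 33.8% of all windows. None of the 9 held a direct repeat of these hexamers spaced by 1, 2 or 5 bases, which 0.0968%, 0.0313% and 0.074% of all windows did. PTGES held the GC box at 89 and 78 bases before the start, and PTGS2 held TATAAA at 32 bases. PTGS1 held the GC box at 58 bases, and TATAAA only on the other strand, at 208 bases. The GC box was present in 4 of the 9 windows and in 42.6% of all, and TATAAA in 2 of the 9 and in 10.7% of all. These matches describe the letters of the windows and say nothing about binding in these cells.

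With GSK-LSD1 and MB3 added, PTGS1 and PTGS2 moved in opposite directions. PTGS1 fell back from its level with the retinoid alone, PTGS2 rose, and PTGES stayed at a high level. In ATRA-LSDi-MB3 against ATRA, 4 of the 9 genes were called, PLA2G4A and PTGS2 higher and PTGS1 and LTC4S lower, against 19.5% of all genes (8.15% higher and 11.4% lower). In AM80-LSDi-MB3 against AM80, 3 of 9 were called, PTGS2 higher and PTGS1 and ALOX5 lower, against 15.7% (6.81% and 8.90%). The median log2 fold changes of the 9 genes were -0.20 and -0.22, against -0.02 and -0.01 over all genes. Scaling to total reads in place of the size factors moved the median of all genes to -0.16 and -0.13, that of the 9 genes to -0.34 in both comparisons, and the share of calls that were higher from 41.7% to 20.9% and from 43.3% to 26.5%.

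The PTGS1 level in ATRA-LSDi-MB3 was 0.433 times that with ATRA (log2 -1.21 ± 0.09, adjusted p = 1.37e-09), and in AM80-LSDi-MB3 0.478 times that with Am80 (log2 -1.06 ± 0.09, adjusted p = 7.12e-09). It stayed above Untreated, by 2.55-fold (log2 1.35 ± 0.08, adjusted p = 1.53e-11) and 2.87-fold (log2 1.52 ± 0.08, adjusted p = 1.88e-12).

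The PTGS2 values with inhibitors were 154, 263 and 134 normalized counts in ATRA-LSDi-MB3 and 292, 229.5 and 169 in AM80-LSDi-MB3. These 6 libraries spread widely, yet all lay above every library without inhibitors. The rise was 2.75-fold on ATRA (log2 1.46 ± 0.22, adjusted p = 1.89e-05) and 3.64-fold on Am80 (log2 1.86 ± 0.22, adjusted p = 1.21e-06). Against Untreated it was 2.07-fold (log2 1.05 ± 0.21, adjusted p = 1.80e-04) and 2.64-fold (log2 1.40 ± 0.21, adjusted p = 7.58e-06). Per kilobase, PTGS1 against PTGS2 stood at 138 against 34.9 normalized counts in ATRA-LSDi-MB3 and at 155 against 43.6 in AM80-LSDi-MB3, so that PTGS1 remained the higher of the cyclooxygenases in all 5 groups.

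For PTGES, the log2 difference on adding the inhibitors was 0.11 ± 0.32 on ATRA (adjusted p = 0.799) and 0.48 ± 0.32 on Am80 (adjusted p = 0.241). All groups share 1 estimate of the spread, which takes in the untreated libraries with 0 to 2 reads. The AM80-LSDi-MB3 libraries all lay above the AM80 libraries, and in a fit of only these groups the same difference had an adjusted p of 0.0123 (limma), still under the fold limit. After quantile normalization it was called (0.61, adjusted p = 0.0315).

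PLA2G4A, which the retinoids had lowered, was higher again with the inhibitors. Its normalized counts were 592, 626 and 600.1 in ATRA-LSDi-MB3 and 593, 605 and 596 in AM80-LSDi-MB3. All 6 values lay above those with the retinoid alone and below the untreated range. The rise was 1.67-fold on ATRA (log2 0.74 ± 0.08, adjusted p = 3.77e-07), which fell to 0.47 on the log2 scale, under the fold limit, with the GC trend removed. On Am80 the log2 difference was 0.56 ± 0.08 (adjusted p = 1.38e-05), just under the fold limit, and it passed without AM80 replicate 2 (0.62).

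PTGES2 had 598, 541 and 543 normalized counts in ATRA-LSDi-MB3 and 739, 690.0 and 700.4 in AM80-LSDi-MB3. Both ranges lay below the untreated one. Against Untreated the log2 fold change was -0.87 ± 0.12 in ATRA-LSDi-MB3 (adjusted p = 3.56e-06), a call that was lost with the GC trend removed (-0.35), and -0.53 ± 0.12 in AM80-LSDi-MB3 (adjusted p = 9.23e-04), under the fold limit. The latter was called without Untreated replicate 3 (-0.60). Over all alternatives the latter ran from -0.71 to -0.24. Untreated replicate 4, which stood apart, held the highest untreated value (1229.8). On the retinoid the log2 difference of PTGES2 was -0.50 ± 0.13 on ATRA (adjusted p = 0.00323) and -0.22 ± 0.13 on Am80 (adjusted p = 0.188), neither called. With the GC trend removed the difference on ATRA was 0.02.

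ALOX5 reached its lowest values in the combinations, 36.1, 29.3 and 37.5 normalized counts in ATRA-LSDi-MB3 and 32.9, 26.1 and 30.9 in AM80-LSDi-MB3. These rest on 19 to 37 reads per library, and all lay below the libraries without inhibitors. Against Untreated the level was 0.458 times in ATRA-LSDi-MB3 (log2 -1.13 ± 0.16, adjusted p = 6.06e-06) and 0.402 times in AM80-LSDi-MB3 (log2 -1.32 ± 0.16, adjusted p = 8.88e-07). On the retinoid, the fall was called with Am80 (log2 -0.81 ± 0.17, adjusted p = 9.82e-04), while the difference on ATRA was under the fold limit (-0.46 ± 0.17, adjusted p = 0.0348). The interaction between them did not pass the test (-0.35 ± 0.25, adjusted p = 0.493).

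ALOX5AP kept most of its rise, with 1887, 1855 and 2177 normalized counts in ATRA-LSDi-MB3 and 1804, 1975 and 1708 in AM80-LSDi-MB3. It was 2.44-fold (log2 1.29 ± 0.09, adjusted p = 9.72e-11) and 2.26-fold (log2 1.18 ± 0.09, adjusted p = 3.44e-10) above Untreated, and its differences from the retinoid alone were -0.20 ± 0.09 (adjusted p = 0.0823) and -0.38 ± 0.09 (adjusted p = 0.00276), under the fold limit. LTA4H was at its highest, with 4562, 4534 and 4457 normalized counts in ATRA-LSDi-MB3 and 4251, 4390.1 and 4326 in AM80-LSDi-MB3. Against Untreated its log2 fold changes were 0.55 ± 0.06 (adjusted p = 6.30e-08) and 0.49 ± 0.06 (adjusted p = 3.51e-07), and against the retinoid alone 0.33 ± 0.06 (adjusted p = 1.55e-04) and 0.25 ± 0.06 (adjusted p = 0.0027), all under the fold limit.

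LTC4S had 602, 512 and 429.6 normalized counts in ATRA-LSDi-MB3 and 722, 683 and 589.6 in AM80-LSDi-MB3. These ranges lay below the untreated one. Against Untreated its log2 fold change was -1.11 ± 0.20 in ATRA-LSDi-MB3 (adjusted p = 6.80e-05) and -0.73 ± 0.20 in AM80-LSDi-MB3 (adjusted p = 0.00376). Without Untreated replicate 4 the second was -0.55, under the fold limit, and with the GC trend removed they were -0.36 and -0.27, both under it. On ATRA the fall of -0.80 ± 0.21 (adjusted p = 0.00396) went to -0.09 (adjusted p = 0.48) with the GC trend removed. On Am80 the difference was -0.34 ± 0.21 (adjusted p = 0.205), and it was called without AM80 replicate 2 (-0.68, adjusted p = 0.00308).

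In the combinations against Untreated, 7 of the 9 genes were called in ATRA-LSDi-MB3 (29.1% of all genes, 14.2% higher and 14.8% lower), 4 higher (PTGS1, PTGS2, PTGES, ALOX5AP) and 3 lower (PTGES2, ALOX5, LTC4S). In AM80-LSDi-MB3 6 of 9 were called (26.0% of all genes, 12.9% higher and 13.1% lower), the same 4 higher and ALOX5 and LTC4S lower. Both counts include PTGES, which passed the filter only through the treated groups. The medians of the 9 genes, PTGES included, were 0.55 and 0.49 (each the value of LTA4H, which was not called), against 0.00 over all genes. Scaled to total reads, they were 0.40 and 0.30, against -0.15 and -0.19 over all genes. That scaling took the share of calls that were higher from 49.0% to 31.9% and from 49.7% to 29.2%, and for AM80 against Untreated from 63.0% to 52.8%. Of the members, it added the calls of PTGES2 in AM80-LSDi-MB3 against Untreated and of PTGES2 and ALOX5 in ATRA-LSDi-MB3 against ATRA.

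Am80 and ATRA were compared directly at the same dose and time, in the 9 genes without and with the inhibitors, which gives 18 differences. None was called. Without inhibitors 7 of 14643 genes were called by limma (0.0478%, with 0.0273% higher and 0.0205% lower with Am80), 16 by edgeR and 17 by DESeq2, and with them 0 (0%) by limma, with 2656 at an unadjusted p under 0.05, 0 by edgeR and 16 by DESeq2, none of them a member. The differences, Am80 minus ATRA, ran from -0.07 to 0.16 on the log2 scale without inhibitors, with adjusted p of 0.368 to 0.962. The 95% intervals of 8 of the 9 genes lay within 1.5-fold in either direction, and that of PTGES (-0.71 to 0.60) reached beyond it. The narrowest was that of LTA4H (-0.11 to 0.14). With inhibitors the differences ran from -0.19 to 0.38, with adjusted p of 0.196 to 0.919. Of the 9 intervals, 5 lay within the limit, and those of PTGS2 (-0.11 to 0.81), PTGES (-0.34 to 0.98), PTGES2 (0.07 to 0.61) and LTC4S (-0.06 to 0.82) reached beyond it, so for those genes a difference beyond 1.5-fold between the retinoids remains possible. PTGES2 was the only member at an unadjusted p under 0.05 (log2 0.34 ± 0.13, adjusted p = 0.196), its libraries with Am80 all above those with ATRA, and 0.11 remained with the GC trend removed. The interaction, which asks whether the inhibitors acted differently on the 2 retinoids, called 0 of 9 genes and 0 (0%) of all genes by limma, with 2211 at an unadjusted p under 0.05, 0 by edgeR and 5 by DESeq2, none of them a member. Its values ran from -0.35 ± 0.25 (ALOX5, adjusted p = 0.493) to 0.45 ± 0.30 (LTC4S, adjusted p = 0.463).

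**Figure D3:**
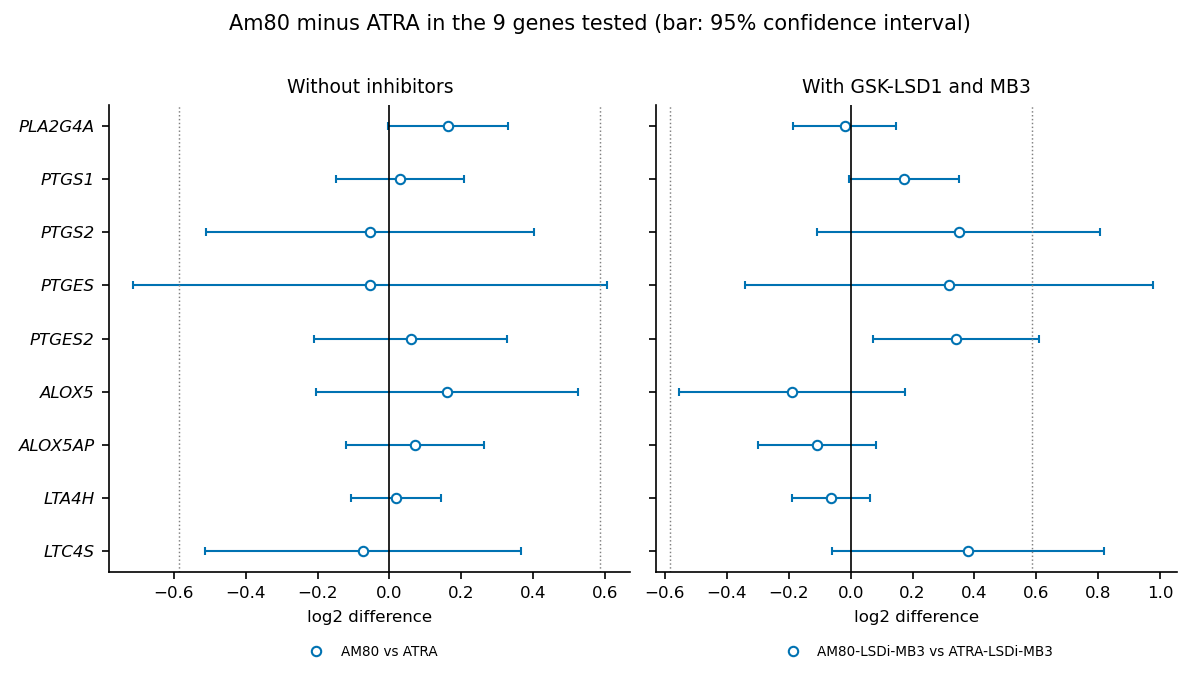
Difference Am80 minus ATRA (horizontal axis, log2) of the 9 genes without inhibitors (left) and with GSK-LSD1 and MB3 (right). Points are estimates, bars 95% confidence intervals and dotted lines 1.5-fold. All points are open, as none was called, and the intervals of PTGES are the widest in both panels.

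Of the other genes of the pathway, 52 had a row in the table and 34 passed the filter. Against Untreated, 8 of these 34 were higher and 2 lower with ATRA (9.45% of all genes were called, 6.52% higher and 2.94% lower). With Am80 6 were higher and 1 lower (10.2%, 6.41% higher and 3.76% lower). PTGDR2, SLCO2A1 and CYP4F3 are among the higher calls against Untreated. Their untreated means were under 10 and they passed the filter through the treated groups, so their calls are a description. In ATRA-LSDi-MB3 7 were higher and 8 lower (29.1%, 14.2% higher and 14.8% lower). In AM80-LSDi-MB3 6 were higher and 7 lower (26.0%, 12.9% higher and 13.1% lower). On adding the inhibitors 3 were higher and 5 lower with ATRA (19.5%, 8.15% higher and 11.4% lower) and likewise with Am80 (15.7%, 6.81% higher and 8.90% lower). None was called between the retinoids. The call of CYP4F3 on ATRA was lost without ATRA replicate 1 (-0.72, adjusted p = 0.056), and that of PRXL2B on Am80 without AM80 replicate 1 (-0.51, adjusted p = 0.0894), AM80 replicate 3 (-0.60, adjusted p = 0.0583) or AM80-LSDi-MB3 replicate 3 (-0.57, adjusted p = 0.0646).

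**Figure D4:**
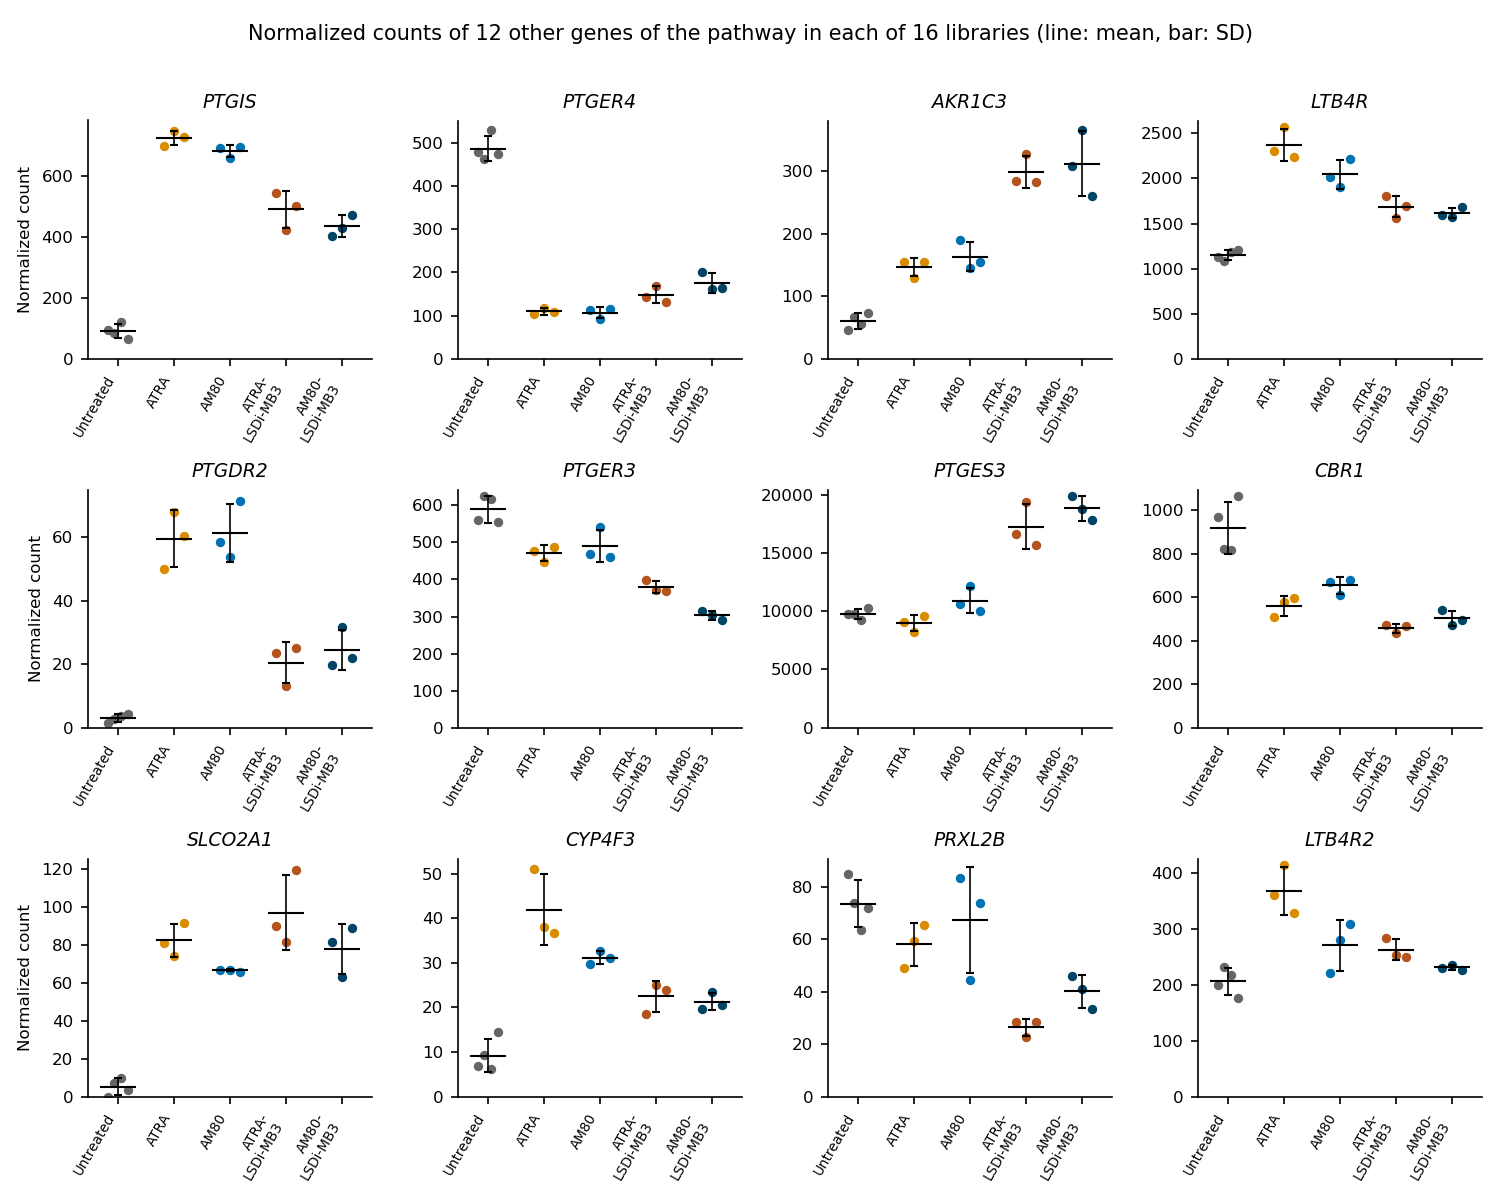
Normalized count (vertical axis, linear from 0) of 12 other genes of the pathway in the 16 libraries, by group along the horizontal axis. Points are libraries, lines group means and bars the SD. PTGIS, AKR1C3, PTGDR2, SLCO2A1 and CYP4F3 are above the untreated range in every treated library, PTGER4 is below it, and PTGES3 is above it in the libraries with inhibitors.

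Among the synthases, PTGIS, the prostacyclin synthase, had a mean of 90.4 ± 23.1 (SD) normalized counts in Untreated (n = 4). It rose to 724 ± 23.7 with ATRA and 682 ± 20.3 with Am80 (n = 3 each; log2 3.02 ± 0.14, adjusted p = 3.29e-13, and 2.94 ± 0.14, adjusted p = 5.15e-13), and stood at 489.7 and 435 in the combinations. AKR1C3, which makes prostaglandin F2 and also acts on steroids, went from 60.3 ± 12.2 to 146 ± 14.8 with ATRA and 164 ± 23.7 with Am80. It rose further to 299 and 312 with the inhibitors (log2 1.02 ± 0.16, adjusted p = 2.90e-05 on ATRA, and 0.92 ± 0.16, adjusted p = 1.10e-04 on Am80). PTGES3, a cytosolic prostaglandin E synthase better known as the HSP90 co-chaperone p23, was not called with a retinoid alone and rose with the inhibitors, from 8962 to 17236 on ATRA (log2 0.94 ± 0.09, adjusted p = 4.64e-08) and from 10915 to 18815 on Am80 (0.79 ± 0.09, adjusted p = 4.75e-07). CBR1, a carbonyl reductase that acts on prostaglandin E2, fell with ATRA from 918 to 560.1 (log2 -0.71 ± 0.09, adjusted p = 4.62e-06), was under the fold limit with Am80 (-0.48 ± 0.09, adjusted p = 4.13e-04) and lay at 458 and 504 in the combinations. PRXL2B, a prostamide and prostaglandin F synthase, fell in the combinations from 73.6 to 26.5 and 40.2 (log2 -1.44 ± 0.20, adjusted p = 2.71e-06, and -0.86 ± 0.20, adjusted p = 8.94e-04).

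Of 4 tested prostanoid receptors, 1 (PTGDR2) was higher and 1 (PTGER4) lower with either retinoid. Of 4 tested leukotriene receptors 2 were higher with ATRA and 1 with Am80. Over all genes 6.52% were higher and 2.94% lower with ATRA, and 6.41% and 3.76% with Am80. PTGER4, a prostaglandin E2 receptor, fell from 487 ± 29.6 normalized counts in Untreated to 109.6 ± 7.76 with ATRA and 107 ± 13.03 with Am80 (log2 -2.14 ± 0.11, adjusted p = 4.11e-12, and -2.19 ± 0.11, adjusted p = 2.92e-12), opposite to PTGES in the same libraries. In the combinations PTGER4 lay at 148 and 176. Its rise on adding the inhibitors was called on Am80 (log2 0.72, adjusted p = 9.67e-05, limma) and was under the fold limit on ATRA (0.43, adjusted p = 0.0068). PTGER3, another receptor of prostaglandin E2, fell in the combinations from 589 to 380.1 (log2 -0.63 ± 0.08, adjusted p = 8.71e-07) and 303 (-0.95 ± 0.08, adjusted p = 2.39e-09). PTGDR2, a prostaglandin D2 receptor, rose from 1 to 4 reads per untreated library to means of 59.6 and 61.3 normalized counts with ATRA and Am80 (adjusted p = 6.86e-10 and 5.64e-10) and lay at 20.5 and 24.4 in the combinations. SLCO2A1, a prostaglandin transporter, had 0 to 8 reads per untreated library and means of 82.2 and 66.5 with the retinoids (adjusted p = 8.58e-07 and 2.35e-06). LTB4R, the high-affinity leukotriene B4 receptor, rose from 1149.8 ± 58.8 to 2369 ± 176 with ATRA and 2046 ± 161 with Am80 (log2 1.04 ± 0.07, adjusted p = 2.78e-10, and 0.83 ± 0.07, adjusted p = 1.04e-08). In the combinations LTB4R lay at 1687 and 1617, above Untreated but under the fold limit (log2 0.55, adjusted p = 1.50e-06, and 0.49, adjusted p = 6.88e-06, limma). LTB4R2 was called with ATRA (log2 0.83 ± 0.12, adjusted p = 1.14e-05) and was under the fold limit with Am80 (0.38 ± 0.12, adjusted p = 0.0162), but it overlaps LTB4R in the annotation, so reads could be split between them. CYP4F3, which inactivates leukotriene B4, rose from 9.21 ± 3.69 to 41.9 ± 7.96 with ATRA and 31.1 ± 1.46 with Am80 (adjusted p = 8.64e-07 and 1.38e-05). PTGDR2, SLCO2A1 and CYP4F3 had untreated means under 10 and so, like PTGES, passed the filter through the treated groups.

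The genes most like 3 members in their pattern were taken by Pearson correlation of log2 values over the 16 libraries, which share groups and depth, and are given as a description. For PTGES they were SLA (r = 0.993), SMIM3 (0.993) and SLC6A12 (0.992). For PTGS1 they were TEAD3 (0.987), PTPRN2-AS1 (0.986) and NPR3 (0.986). For PTGS2 they were PUS3 (0.975), HSPD1 (0.967) and HSP90AB1 (0.966).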

How the data were processed

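RNA-seq libraries of OCI-AML3 cells in 5 groups (4 untreated, 3 for each treatment) were analysed. The values are the normalized gene-level signal (counts divided by DESeq2 size factors) that the authors deposited. The submitters' processing notes name FastQC, cutadapt, STAR, featureCounts and DESeq2, without versions, and the genome build, annotation and strand setting are not given in the sources used here. Each library's values were whole multiples (100% within 0.01) of the value of 1 read, so whole reads were recovered for depth and count tests. Depth ran from 11963898 to 33789718 reads per library, and intervals and floors cover counting error only.

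From these values, log2(normalized count + 1) was fitted, for the 14643 genes whose mean reached 10, with limma 3.58.1 (trend, R 4.3.3), with 1 coefficient per group over all 16 libraries. The members, lists and tests were chosen with earlier results of these data known. P-values were adjusted over all genes tested (Benjamini-Hochberg), and a gene was called at an adjusted p under 0.05 and over 1.5-fold. Fold changes on this scale understate changes of low genes. Errors are SE and intervals 95%. All 10 members are named, and of the 52 other pathway genes the 12 with the smallest p among those called in any of the 6 comparisons with Untreated or the retinoid alone. The 3 genes most like each of the 3 members with the widest range of group means were named by correlation.

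Positions and lengths are from GENCODE 29 (GRCh38) and promoter windows from RefSeq (GRCh38.p14). All 62700 rows carried a symbol, and 97.6% of genes tested had a GC content, taken from the longest transcript. Alternatives were quantile and total-read scaling, edgeR 4.0.16, DESeq2 1.42.0, a fit of only the groups compared, a replicate block, pseudocounts of 0.5 and 5, no filter or a mean of 50, other thresholds and each library left out, and, chosen after seeing the data, a GC trend removed by a spline with 5 degrees of freedom and both libraries that stood apart left out. Scripts were tested on simulated data.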

Additional observations from a re-analysis of the deposited data

Results flagged for a closer look

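LTC4S had 1587 normalized counts in Untreated replicate 4, against 915 to 1019 in the other 3 untreated libraries, and its gap to the nearest of them was 0.845 of the group's range. It was the only 1 of 21 genes looked at (the 9 members tested and the 12 named pathway genes) with such a library among the 4 untreated ones, where chance flags about 1 in 20. The same library was relatively high in GC-rich genes, and the part of this in the LTC4S value was not tested. Groups of 3 libraries were not looked at in this way.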

How the results depend on the processing

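Over 30 alternatives, 2380 of 2425 member values stayed on their side of the threshold (32 of them, not called, changed sign), 16 lost a call, 29 gained one and 0 reversed a call. With the 12 named pathway genes these were 5535 of 5632 (58 not called changed sign), 40, 57 and 0. At an adjusted p under 0.01 and 2-fold, 3 members were called in ATRA against Untreated and 2 in ATRA-LSDi-MB3 against ATRA. Without a fold limit 7 were called in ATRA-LSDi-MB3 against ATRA and 6 in AM80-LSDi-MB3 against AM80. Of all 14643 genes tested, 8070 and 6959 had an unadjusted p under 0.05 (limma) in these comparisons. With the GC trend removed 2 were called in ATRA-LSDi-MB3 against ATRA (PTGS1 and PTGS2), against 1826 of 14293 genes. Without both libraries that stood apart 5 were called in AM80-LSDi-MB3 against AM80. The shares of all genes at the stricter thresholds and with libraries left out are not given here. Leaving out each library in turn gave 3 to 5 there (5 without AM80 replicate 2), 4 to 5 in AM80 against Untreated, 5 to 7 in AM80-LSDi-MB3 against Untreated, and 5, 7 and 4 throughout in ATRA against Untreated, ATRA-LSDi-MB3 against Untreated and ATRA-LSDi-MB3 against ATRA. The cause of these changes was not tested. The replicate numbers did not pair the libraries (correlations of deviations of -0.11 to 0.19 over 30 pairs, 4 above 0.1). Only Untreated has a replicate 4, so a replicate block sets that library aside and does not test pairing alone. With the block the members called were 5, 4, 7, 5, 4 and 3 in the 6 comparisons with Untreated or the retinoid alone. The call lost was LTC4S in AM80-LSDi-MB3 against Untreated (-0.55, adjusted p = 0.00655, limma). Its value was also -0.55 without Untreated replicate 4 and without a block. In the other 3 comparisons 0 members were called, while over all genes 34 (AM80 against ATRA), 84 (the combinations) and 0 (interaction) were called. The fitted PTGES values against Untreated depend on the pseudocount and on 3 untreated reads, and 3 libraries a group leave differences below 1.5-fold in PTGS2, PTGES and LTC4S poorly resolved.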

Other observations

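A further 7 genes of the pathway were called but fall outside the naming rule, so they are given as values. PTGER2, a prostaglandin E2 receptor like PTGER4 and PTGER3, fell in both combinations against Untreated (log2 -1.64 ± 0.54, adjusted p = 0.0127, and -2.82 ± 0.54, adjusted p = 1.58e-04, limma), from a mean of 33.2 normalized counts to 9.47 in ATRA-LSDi-MB3 and 5.86 in AM80-LSDi-MB3. These means rest on 7 to 12 and 0 to 9 reads per library, so the log2 values depend on the pseudocount. PTGER2 passed the filter through Untreated and the retinoids alone, and its calls are a description. OXER1, a receptor of the 5-lipoxygenase product 5-oxo-ETE, fell in both combinations as well (log2 -0.62 ± 0.21, adjusted p = 0.0159, and -0.66 ± 0.21, adjusted p = 0.0126). CBR3, a carbonyl reductase, fell from 36.5 to 22.6 and 15.8 (adjusted p = 0.0348 and 4.88e-04). PTGR2, a prostaglandin reductase, rose on adding the inhibitors to ATRA (log2 0.73 ± 0.13, adjusted p = 9.48e-05; on Am80 0.45 ± 0.13, adjusted p = 0.00699, under the fold limit), while ABCC1, the exporter of leukotriene C4, fell there (log2 -0.68 ± 0.10, adjusted p = 1.48e-05; on Am80 -0.28 ± 0.10, adjusted p = 0.0301, under the fold limit). TBXAS1, the thromboxane synthase, rose with ATRA (log2 0.62 ± 0.10, adjusted p = 1.01e-04; with Am80 0.43 ± 0.10, adjusted p = 0.0033, under the fold limit), and GGT1, which processes leukotriene C4, fell in ATRA-LSDi-MB3 against Untreated (log2 -0.72 ± 0.15, adjusted p = 3.76e-04; in AM80-LSDi-MB3 -0.52 ± 0.15, adjusted p = 0.00593, under the fold limit).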
